A study of Mus musculus with 6 samples.

Results

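The genes described here carry the signals of a pair of bioactive lipids, sphingosine-1-phosphate (S1P) and lysophosphatidate (LPA). They are the S1P receptor S1pr1, the S1P exporter Spns2, the sphingosine kinase Sphk1, the S1P phosphatase Sgpp1, the LPA receptors Lpar4 and Lpar6, and the lipid phosphate phosphatases Plpp1 and Plpp3. They were taken from the deposited count table by gene symbol and make 8 of its 56748 genes. The list was chosen with earlier results of these data known. The libraries came from endothelial cells (ECs) sorted from the spinal cord of mice at postnatal day 16. The 3 controls carried a loxP-flanked Tardbp gene without Cre, and the 3 TDP-43 iΔEC libraries carried the same allele with Cdh5(PAC)-CreERT2, a tamoxifen-activated Cre driven by the promoter of VE-cadherin, a gene that ECs express. Tardbp encodes the RNA-binding protein TDP-43. Both groups, of both sexes, received a 1 mg/mL tamoxifen solution from postnatal day 5 to day 7, so the comparison addresses what loss of TDP-43 in ECs does to their RNA levels. Control mice received tamoxifen but had no Cre, so any effect of the Cre itself cannot be told apart from that of the deletion.

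S1P is made from sphingosine by the kinases Sphk1 and Sphk2. ECs export it through Spns2 into blood and lymph, and red blood cells and platelets export it through Mfsd2b. Sgpp1 and Sgpp2 dephosphorylate it inside the cell, while the lyase Sgpl1 breaks it down for good. On ECs, S1pr1 couples to Gi proteins, acts through Rac and strengthens junctions between cells, and it restrains vessel sprouting. LPA is made outside the cell mainly by autotaxin, encoded by Enpp2. Lpar4 and Lpar6 belong to the P2Y-related branch of LPA receptors and couple to G12/13 proteins. Plpp1 and Plpp3 are membrane enzymes that dephosphorylate LPA and S1P at the cell surface and so end their signals.

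The RNA libraries were made with a SMART-seq2 protocol from small amounts of RNA. They held between 25704871 and 47270654 estimated counts, and between 12972 and 16557 genes had at least 1 count. A count of 0 allowed a level of up to 0.0635 to 0.117 CPM (counts scaled to the library total), depending on the library (3 counts, covering counting error only). Whether each library holds the cells of 1 mouse or of several is not stated in the sources used here, so the tests measure the spread between these libraries. The targeted gene, Tardbp, stood at 1973, 2282 and 2069 normalized counts in controls 1, 2 and 3 and at 982, 599.9 and 433 in TDP-43 iΔEC libraries 1, 2 and 3. The groups did not overlap, in the direction of the labels. Its log2 fold change was -1.62 ± 0.41 (SE), with an unadjusted p of 0.00332 and an adjusted p of 0.287 by limma, and its adjusted p by DESeq2 was 0.0216. Normalized counts here are counts divided by DESeq2 size factors, and fold changes are of TDP-43 iΔEC libraries against controls. The 9 EC markers summed to 10012 to 13874 CPM in controls and 9941 to 12710 in TDP-43 iΔEC libraries. Cldn5 held the largest part of this sum. Flt1, Kdr and Tek were lower in groups that did not overlap, as were 7.10% of all tested genes. Their log2 fold changes were -0.69, -0.26 and -0.35, with adjusted p of 0.0635, 0.575 and 0.513 by limma. The adjusted p by DESeq2 was 7.9e-06, 0.768 and 0.491. For the other EC markers the groups overlapped. Microglial markers were near 0, with Itgam and Adgre1 at 0 in all 6 libraries. Red blood cell markers summed to 6336 to 9761 CPM in controls and 2197 to 2911 in TDP-43 iΔEC libraries, and oligodendrocyte lineage markers to 329 to 645 and 29.2 to 634. The number of cDNA amplification cycles differed between samples, and which library had which number is not given.

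TDP-43 binds UG-rich RNA, so a long run of TG from each gene that holds one is shown first, as a feature of its sequence. It is the longest run of the gene, except in Sgpp1, whose longest run (17 repeats) lies in an exon of another of its transcripts and whose longest intron run is shown. The reference genome was searched over each gene, on its own strand, for the letters TG repeated at least 6 times. In 7 of the 8 genes such a run was present. Of 13060 tested genes with an annotated span, 66.1% held one. The sequences below are GRCm39, 5′ to 3′ on the gene's strand. Capitals mark the TG run, and the lower-case letters beside intron runs are 10 flanking bases.
S1pr1, chr3:115507202-115507231, minus strand, 15 repeats in an exon used by another of its transcripts: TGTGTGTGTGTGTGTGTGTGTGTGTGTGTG
Spns2, chr11:72368061-72368122, minus strand, 21 repeats in an intron: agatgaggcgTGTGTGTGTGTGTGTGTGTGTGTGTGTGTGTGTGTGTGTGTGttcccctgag
Sgpp1, chr12:75776086-75776137, minus strand, 16 repeats in an intron: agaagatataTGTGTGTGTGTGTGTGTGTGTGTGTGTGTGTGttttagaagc
Lpar4, chrX:105969527-105969560, plus strand, 7 repeats in an intron: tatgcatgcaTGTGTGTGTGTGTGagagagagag
Lpar6, chr14:73480522-73480545, plus strand, 12 repeats in the untranslated part of its exon: TGTGTGTGTGTGTGTGTGTGTGTG
Plpp1, chr13:112960191-112960256, plus strand, 23 repeats in an intron: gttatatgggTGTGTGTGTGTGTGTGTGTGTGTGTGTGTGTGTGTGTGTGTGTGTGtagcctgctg
Plpp3, chr4:105087060-105087121, plus strand, 21 repeats in an intron: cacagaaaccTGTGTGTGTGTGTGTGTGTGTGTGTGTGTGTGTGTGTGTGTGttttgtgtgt

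The members were compared with tested genes of like length. Plpp1 held 12 runs and Spns2 held 10, and among tested genes of similar span (0.5 to 2 times) 97.5% and 89.9% held at least 1. S1pr1 held 2 runs in a span of 4651 bp, and 21.8% of genes of its span held a run, 9.88% one at least as long. Lpar6 held 1 run in 5400 bp, against 26.6% of genes of its span. Sphk1 held none, like most genes of its span, of which 28.3% held one. Sgpp1 held 4 runs, Lpar4 2 and Plpp3 6, against 76.2%, 59.6% and 98.0% of genes of their span. A run of letters is not a binding site, and these libraries do not measure binding.

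Levels of the 8 genes fell in steps, and the order within a step was less clear. Exon length here covers all annotated transcripts of a gene, and the order within a step can depend on it. For Spns2 it is 6698 bp, beside 3411 bp for its canonical (reference) transcript, and for Lpar4 it is 4413 beside 4263 bp. In CPM per kb of exon, S1pr1 was the highest at 190 ± 28.8 (SD, n = 6 libraries), with a range of 156 to 226, and its expression stood at the 99.0 percentile of all tested genes by log2 CPM. Plpp1 (29.4 ± 6.55) and Lpar6 (24.2 ± 5.79) came next, and their ranges overlapped. Lpar4 (5.77 ± 2.93), Spns2 (4.79 ± 1.65), Plpp3 (4.03 ± 3.22) and Sgpp1 (2.42 ± 1.48) followed, and the ranges of neighbors among these genes overlapped. Sphk1 was last, with a mean of 0.0824 and a highest value of 0.386. S1pr1 exceeded Plpp1, Lpar6 exceeded Lpar4, and Sgpp1 exceeded Sphk1 in 6 of 6 libraries.

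**Figure D1:**
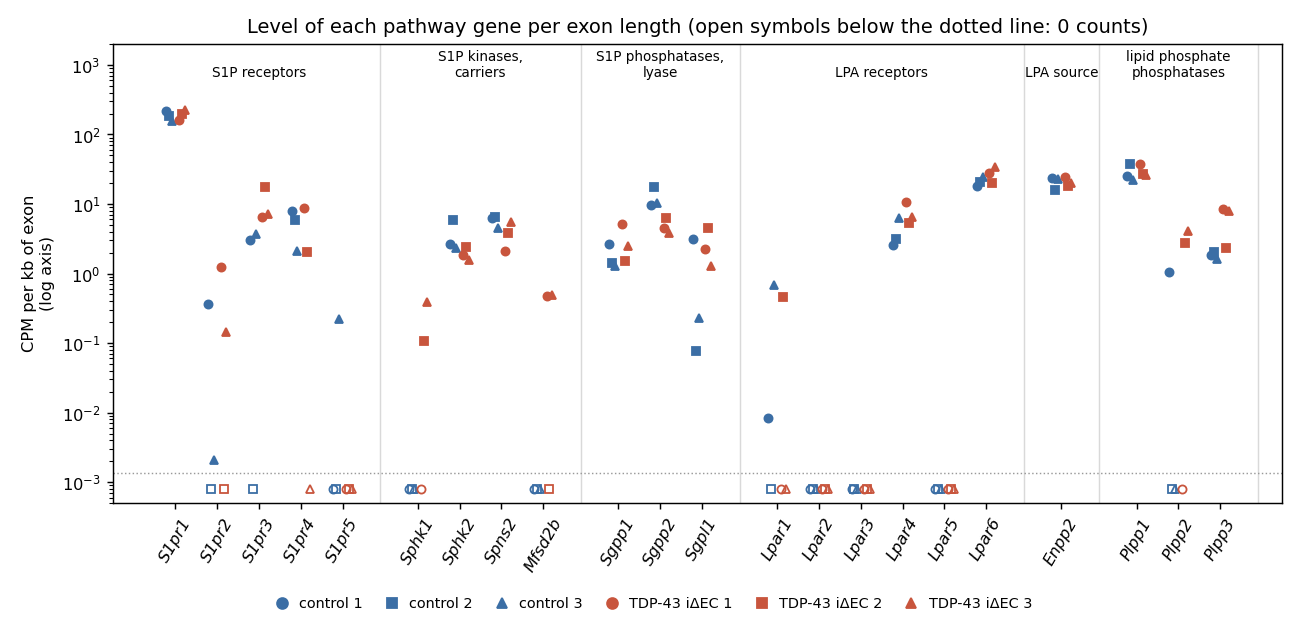
CPM per kb of exon (vertical log axis) of S1P and LPA pathway genes in each of the 3 control (blue) and 3 TDP-43 iΔEC (red) libraries, grouped by role, with open symbols below the dotted line for libraries with 0 counts. S1pr1 lies between 156 and 226 in every library, while Lpar2, Lpar3 and Lpar5 have no counts in any of the 6.

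None of the 8 genes passed the test between groups. By limma with voom, 18 of 13107 tested genes (0.137%) had an adjusted p under 0.05, of which 4 were higher and 14 lower in TDP-43 iΔEC ECs, and none of these was 1 of the 7 members that could be tested. Sphk1 had too few counts to be tested. At an unadjusted p under 0.05, 4.26% of tested genes were higher and 5.0% lower, and 1 of the 7 members, Spns2, was among the lower. Of all tested genes, 7.93% were higher and 7.10% lower in groups that did not overlap, and 0 of the 7 members were in either set. With edgeR's quasi-likelihood test, no gene passed at an adjusted p under 0.05, 848 genes had an unadjusted p under 0.05, and no member was among them. With DESeq2, 250 genes (1.91%) passed after adjustment and no member did. The median log2 fold change of the 7 members was 0.15, beside -0.015 over all tested genes, and the median SE over all tested genes was 0.71.

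**Figure D2:**
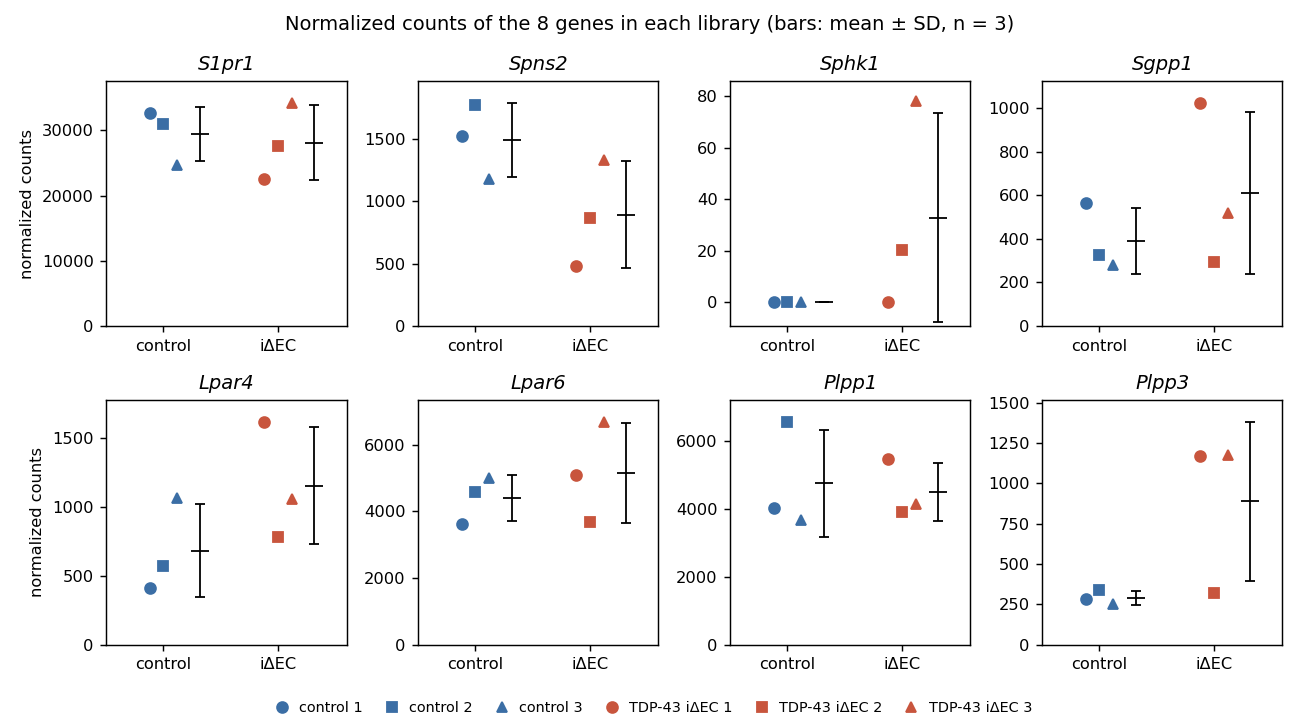
Normalized counts (vertical axes, counts divided by size factors) of the 8 genes in each control (blue) and TDP-43 iΔEC (red) library, with black bars for the mean ± SD of 3 libraries. The groups overlap for each of the 8 genes, Plpp3 is high in TDP-43 iΔEC libraries 1 and 3 but not 2, and Sphk1 has counts in TDP-43 iΔEC libraries 2 and 3.

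S1pr1, the main S1P receptor of ECs, lies on chromosome 3 (GRCm39, 115504071 to 115508721, minus strand). It stood at 32618, 31020 and 24664 normalized counts in controls 1, 2 and 3 and at 22577, 27623 and 34134 in TDP-43 iΔEC libraries 1, 2 and 3. The highest and the lowest library were both TDP-43 iΔEC libraries, and the group means were 29434 ± 4207 and 28111 ± 5794 (SD, n = 3 each). The log2 fold change was -0.15 ± 0.18 (SE), with an adjusted p of 0.811 by limma. Its 95% interval ran from 0.681 to 1.196 fold, the narrowest of the 7 members. The sign turned to 0.046 with library sizes alone as the scaling and to 0.093 with scaling to 5 EC marker genes. These genes were Pecam1, Cldn5, Kdr, Flt1 and Vwf, of which Kdr and Flt1 were themselves lower in TDP-43 iΔEC libraries without overlap. These scalings moved the median of all tested genes to 0.18 and 0.23, so S1pr1 stayed below that median under both.

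The other S1P receptors were low or irregular. Within the summed level of S1pr1 to S1pr5 per exon length, S1pr1 made up 94.9%, 96.9% and 96.3% in controls and 90.7%, 91.0% and 96.9% in TDP-43 iΔEC libraries. The means were 96.1% ± 1.01 and 92.8% ± 3.47 (two-sided exact permutation test, p = 0.3, and 0.35 after adjustment over 7 such shares). With 3 libraries against 3, this test cannot give a p below 0.1. S1pr3, which couples to Gi, Gq and G12/13 proteins and is also found in mural cells, stood at 548, 0 and 685 normalized counts in controls and 1089.6, 2870.5 and 1284 in TDP-43 iΔEC libraries. The groups did not overlap, and the adjusted p was 0.558 by limma and 0.812 by DESeq2. Control 2 had 0 counts, and the fitted log2 fold change depended on the method, at 4.70 by limma and 2.09 by DESeq2. Markers of mural cells summed to 824, 663 and 1241 CPM in controls 1, 2 and 3 and to 689, 1462 and 573 in TDP-43 iΔEC libraries 1, 2 and 3. TDP-43 iΔEC library 2 was highest for both S1pr3 and this sum. TDP-43 iΔEC library 3 was next for S1pr3 and lowest for the sum. Most of the sum came from Rgs5 and Vtn, and the single markers did not move together. Pdgfrb stood at 589, 0 and 711 normalized counts in controls and 516, 1902 and 1172 in TDP-43 iΔEC libraries. Kcnj8 stood at 1485, 0 and 2612 and at 0, 3454 and 2330, and Acta2 at 1672, 3578 and 2657 and at 2619, 3052 and 649. The part of mural cells in the S1pr3 level was not tested. S1pr4, a receptor known from blood cells, fell between 0 and 710.5 normalized counts in the 6 libraries, S1pr2 between 0 and 428, and S1pr5 had counts in 1 library.

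Spns2, the exporter that brings S1P out of ECs, lies on chromosome 11 (72342463 to 72380840, minus strand). It stood at 1522, 1769 and 1178 normalized counts in controls 1, 2 and 3 and at 481, 865 and 1334 in TDP-43 iΔEC libraries 1, 2 and 3. TDP-43 iΔEC library 3 lay above control 3, so the groups overlapped, while TDP-43 iΔEC libraries 1 and 2 lay below all controls. At -1.03 ± 0.44 (95% interval -2.03 to -0.033), its log2 fold change was the lowest of the 7 members. Its unadjusted p of 0.0443 by limma became 0.526 after adjustment over all genes, and the unadjusted p was 0.139 by edgeR and 0.163 by DESeq2. The sign was negative in all 16 alternative fits, but leaving out TDP-43 iΔEC library 1 brought the log2 fold change to -0.52. Mfsd2b, the S1P exporter of red blood cells, had no counts in any control and 88.0, 0 and 96.5 normalized counts in TDP-43 iΔEC libraries, while the summed red blood cell markers were lower there, as given above.

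Sphk1, which makes S1P, lies on chromosome 11 as well (116421751 to 116427501, plus strand). It had 0 counts in each of the 3 controls and in TDP-43 iΔEC library 1, and 17 and 55 counts in TDP-43 iΔEC libraries 2 and 3, or 20.3 and 78.1 normalized counts. TDP-43 iΔEC libraries 2 and 3 were also the shallowest, at 28228980 and 25704871 counts. No fold change is given for Sphk1, as it had too few counts to be compared. Sphk2, the other kinase, had counts in every library. It stood at 729.6, 1752 and 669 normalized counts in controls and at 466, 603 and 426 in TDP-43 iΔEC libraries, without overlap between the groups. The fit gave a log2 fold change of -0.97 ± 0.58, with an adjusted p of 0.608 by limma. In its exons, 30.9% of bases overlap those of the ribosomal protein gene Rpl18 on the opposite strand. Strand was not stated to have been used in counting, so reads of overlapping genes cannot be told apart by it.

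Sgpp1, the S1P phosphatase of the endoplasmic reticulum, lies on chromosome 12 (75761023 to 75782605, minus strand). It stood at 565, 328 and 279 normalized counts in controls 1, 2 and 3 and at 1022, 292 and 518 in TDP-43 iΔEC libraries 1, 2 and 3. The groups overlapped, and TDP-43 iΔEC library 1 alone was above control 1. Sgpp1 had a log2 fold change of 0.67 ± 0.68, with an adjusted p of 0.761 by limma, and it became -0.032 without TDP-43 iΔEC library 1. Sgpp2, the second phosphatase, stood at 1470.0, 2937 and 1662 normalized counts in controls and at 645, 880.1 and 595 in TDP-43 iΔEC libraries. All 3 TDP-43 iΔEC libraries lay below all 3 controls. For Sgpp2 the log2 fold change was -1.51 ± 0.45, with an unadjusted p of 0.00892 and an adjusted p of 0.370 by limma, so it did not pass the test. Exons of Farsb on the opposite strand overlap 32.0% of the bases in the exons of Sgpp2. The share of Sgpp1 in the summed level of both phosphatases per exon length was 22.0%, 7.55% and 10.95% in controls and 53.7%, 19.6% and 38.9% in TDP-43 iΔEC libraries. The means were 13.5% ± 7.53 and 37.4% ± 17.1, and the groups overlapped (exact permutation test, p = 0.2, adjusted p = 0.35). As this test cannot give a p below 0.1 here, it cannot decide whether the shares differ. Sgpl1, the S1P lyase, was irregular, with 761, 20.5 and 58.4 normalized counts in controls and 500.4, 981 and 309 in TDP-43 iΔEC libraries.

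Lpar4, an LPA receptor known in ECs for a part in vessel sprouting, lies on the X chromosome (105964206 to 105977506, plus strand). It stood at 413, 568 and 1062 normalized counts in controls 1, 2 and 3 and at 1617, 784 and 1059 in TDP-43 iΔEC libraries 1, 2 and 3. Controls 1 and 2 were lowest and TDP-43 iΔEC library 1 highest, while control 3 lay within the other group. The log2 fold change was 0.85 ± 0.51, with an unadjusted p of 0.131 and an adjusted p of 0.612 by limma. Its sign was positive in all 16 alternative fits, which ranged from 0.47 to 1.24. Lpar6, the other P2Y-related receptor, lies on chromosome 14 (73475335 to 73480734, plus strand). It stood at 3635, 4581 and 4991 normalized counts in controls 1, 2 and 3 and at 5097, 3671 and 6692 in TDP-43 iΔEC libraries 1, 2 and 3. The groups overlapped, and TDP-43 iΔEC library 3 was the highest. Between groups, Lpar6 had a log2 fold change of 0.15 ± 0.26 (adjusted p of 0.879 by limma), and the 95% interval ran from 0.731 to 1.68 fold. Lpar6 is a single exon that lies within the retinoblastoma gene Rb1 on the opposite strand, and 7.56% of its bases overlap exons of Rb1. Rb1 itself stood at 0 to 787 normalized counts, below Lpar6 in each library, and control 2, which had no Rb1 counts, had 4581 for Lpar6.

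These receptors made up nearly the whole LPA receptor level of the cells. Lpar2, Lpar3 and Lpar5 had 0 counts in all 6 libraries, and Lpar1 had 2.50, 0 and 212 normalized counts in controls and 0, 124 and 0 in TDP-43 iΔEC libraries. Within the summed level per exon length, Lpar6 made up 84.1% ± 5.63 in controls and 77.9% ± 5.88 in TDP-43 iΔEC libraries (exact permutation test, p = 0.3, adjusted p = 0.35). The share of Lpar4 was 15.2% ± 4.37 and 21.5% ± 5.96 (p = 0.2, adjusted p = 0.35, same exact test). Enpp2, which encodes the enzyme that makes LPA, stood at 7489, 5478 and 7408 normalized counts in controls and 7105, 5176 and 6341 in TDP-43 iΔEC libraries. Its log2 fold change was -0.15 ± 0.23, with an adjusted p of 0.848 by limma. Enpp2 is also known from oligodendrocytes, whose markers summed to 634, 65.2 and 29.2 CPM in TDP-43 iΔEC libraries 1, 2 and 3. Their part in the level of Enpp2 was not tested.

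Plpp1, the more abundant of the lipid phosphate phosphatases here, lies on chromosome 13 (112937278 to 113005534, plus strand). It stood at 4020, 6557 and 3665 normalized counts in controls 1, 2 and 3 and at 5457, 3889 and 4135 in TDP-43 iΔEC libraries 1, 2 and 3. The highest and lowest libraries were both controls. The log2 fold change was -0.044 ± 0.28, with an adjusted p of 0.974 by limma and a 95% interval of 0.628 to 1.497 fold. Its sign changed with the scaling and with the libraries left out, so no direction is given. Exons of Mtrex on the opposite strand overlap 12.9% of the exon bases of Plpp1, and Mtrex stood at 1009 to 2677 normalized counts.

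Plpp3, known for ending LPA and S1P signals on ECs and for its part in vessel development, lies on chromosome 4 (105014421 to 105089964, plus strand). It stood at 280.3, 336 and 251 normalized counts in controls 1, 2 and 3 and at 1172, 318 and 1175 in TDP-43 iΔEC libraries 1, 2 and 3. TDP-43 iΔEC libraries 1 and 3 lay far above all controls, and library 2 lay within their range. The means were 289 ± 43.5 and 889 ± 494. At 1.44 ± 0.77 (95% interval -0.31 to 3.19), its log2 fold change was the highest of the 7 members. The unadjusted p was 0.0962 by limma, 0.0602 by edgeR and 0.0222 by DESeq2, and the adjusted p was 0.587 by limma and 0.376 by DESeq2. Over 16 alternative fits the log2 fold change ran from 0.95 to 1.99, with the highest value when TDP-43 iΔEC library 2 was left out. The exons of Plpp3 overlap those of the noncoding gene Gm29838 over 13.3% of their bases. Astrocytes also express Plpp3. Their markers summed to 217 to 258 CPM in controls and 151 to 199.8 in TDP-43 iΔEC libraries, most of it from Gja1, which ECs can also express. Of the other astrocyte markers, Gfap stood at 243, 836 and 1.62 normalized counts in controls and 859.8, 126 and 0 in TDP-43 iΔEC libraries. Fgfr3 stood at 159.7, 0 and 98.2 and at 425, 154 and 519, and Slc1a2 at 161, 250 and 391 and at 0, 71.6 and 18.4. Aqp4 had 64.9, 0 and 90.1 in controls and 0 in each TDP-43 iΔEC library. Aldh1l1 stood at 5.82, 0 and 98.2 and at 0, 8.35 and 0, and Slc1a3 at 191, 0 and 11.4 and at 85.7, 38.2 and 0. Markers of fibroblasts summed to 50.5 to 61.2 CPM in controls and 62.7 to 109 in TDP-43 iΔEC libraries, without overlap between the groups. These markers did not move together. In mean normalized counts of controls and TDP-43 iΔEC libraries, Col3a1 (672 and 1860) and Col1a1 (135 and 348) were higher in the latter. Col1a2 (660 and 595), Dcn (467 and 194), Lum (69.3 and 0) and Pdgfra (112 and 0) were lower there. The part of astrocytes and fibroblasts in the level of Plpp3 was not tested.

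Plpp1 made up most of the summed level of Plpp1, Plpp2 and Plpp3. Its share of this sum per exon length was 89.8%, 94.9% and 93.3% in controls and 81.6%, 84.2% and 68.7% in TDP-43 iΔEC libraries. The share of Plpp3 was 6.59%, 5.12% and 6.72% in controls and 18.4%, 7.25% and 20.6% in TDP-43 iΔEC libraries. For both shares the groups did not overlap, and p was 0.1, the smallest that the exact permutation test can give here, and 0.35 after adjustment over the 7 shares. Plpp2, the remaining gene of the 3, had 65.7, 0 and 0 normalized counts in controls and 0, 159 and 258 in TDP-43 iΔEC libraries. Thus the lower share of Plpp1 in TDP-43 iΔEC library 3 came with higher levels of both Plpp3 and Plpp2, while the level of Plpp1 itself was 4135 normalized counts, within the range of the controls. The related genes Plpp5 and Plpp6, named after their values were seen, are not in this sum. Their mean levels were 22.9 and 23.8 CPM per kb of exon, near the 29.4 of Plpp1, and their adjusted p-values were 0.830 and 0.811 by limma.

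**Figure D3:**
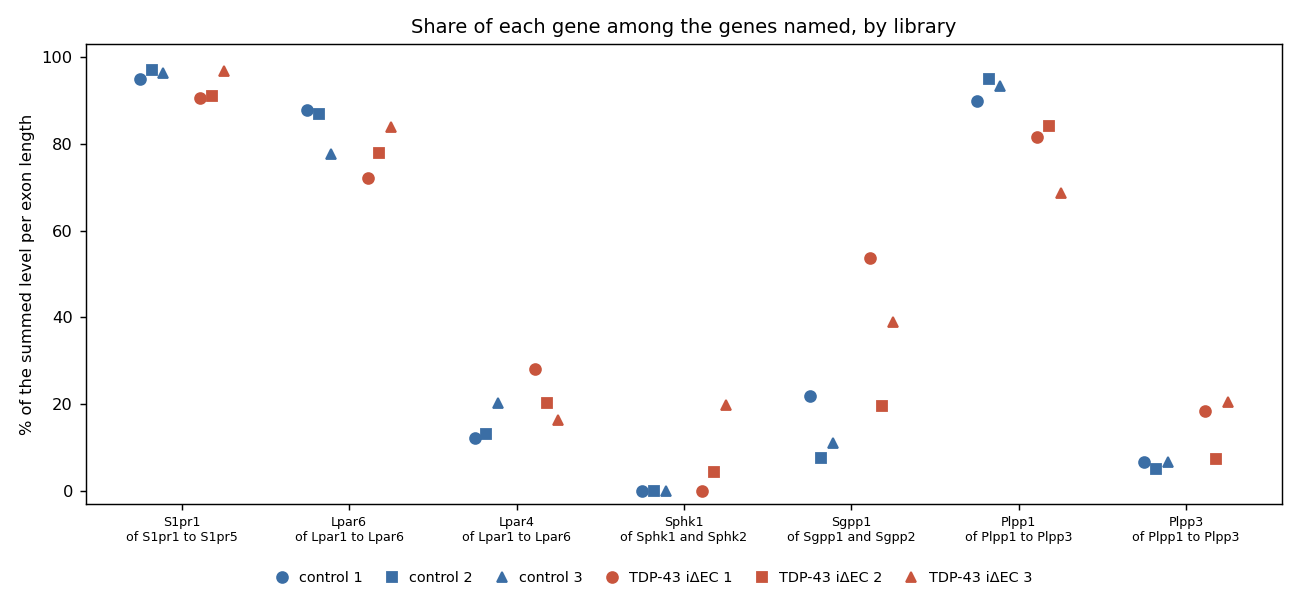
Share of each named gene in the summed level of the genes under it per exon length (vertical axis, percent) in each control (blue) and TDP-43 iΔEC (red) library. S1pr1 is above 90% in every library, and the Plpp1 and Plpp3 shares are the ones where the groups do not overlap.

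The wider pathway was described with 101 further genes in 4 lists, of which 82 could be tested and 10 had no counts in any library. By limma, 0 of the 82 passed at an adjusted p under 0.05 (0.137% of all tested genes did), and the smallest adjusted p was 0.296. At an unadjusted p under 0.05, 6 of the 82 were higher and 5 lower, beside 4.26% and 5.0% of all tested genes. By edgeR, 9 of the 82 had an unadjusted p under 0.05 and none passed after adjustment. By DESeq2, 1 of the 82, Cerkl, passed after adjustment, beside 1.91% of all tested genes. Of the 82, 8 were higher and 6 lower without overlap between the groups, beside 7.93% and 7.10% of all tested genes. The lists were the remaining S1P genes (8 tested, median log2 fold change 0.90), the remaining LPA genes (15 tested, -0.19), the enzymes of sphingosine and ceramide metabolism (28 tested, 0.0060), and G proteins and effectors coupled to the receptors (31 tested, 0.085). In the S1P list, 4 genes were above 0 and 4 below, and the median fell in the gap between them. Those above, S1pr2, S1pr3, Sgpl1 and Abcc1, had SEs of 1.34 to 3.28. Those below, S1pr4, Sphk2, Sgpp2 and Abca1, had SEs of 0.20 to 2.14.

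Among the remaining S1P genes, Abca1, a lipid transporter that also moves S1P in some cells, stood at 10038, 10677 and 8213 normalized counts in controls and 6002, 5814 and 7832 in TDP-43 iΔEC libraries. The groups did not overlap, and the log2 fold change of -0.62 ± 0.20 had an adjusted p of 0.396 by limma. Apom, which carries S1P in plasma, had no counts. No gene of the remaining LPA list had an unadjusted p under 0.05, and 4 of its 15 tested genes had fold changes above 0 and 11 below.

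In ceramide metabolism, Degs2, a sphingolipid desaturase and hydroxylase, stood at 3289, 3465 and 1425 normalized counts in controls and 1256, 1241 and 360.4 in TDP-43 iΔEC libraries. Its log2 fold change was -1.49 ± 0.58 (adjusted p of 0.498 by limma). Smpd3, a neutral sphingomyelinase that releases ceramide, had 0, 0 and 17.0 normalized counts in controls and 419, 47.7 and 18.4 in TDP-43 iΔEC libraries, with an adjusted p of 0.519 by limma. Cerkl, a relative of ceramide kinase, had no counts in controls and 454, 26.2 and 251 normalized counts in TDP-43 iΔEC libraries. Its adjusted p was 0.296 by limma and 0.000244 by DESeq2. Exons of the integrin gene Itga4 on the opposite strand overlap 31.8% of the exon bases of Cerkl, and a fitted fold change against controls at 0 depends on the prior count and is not given.

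Among G proteins and effectors, Gnai3, a Gi subunit of the kind S1pr1 uses, stood at 2207, 2292 and 2534 normalized counts in controls and 3871, 3649 and 4260.1 in TDP-43 iΔEC libraries. Its log2 fold change was 0.70 ± 0.23 (adjusted p of 0.422 by limma), with no overlap between the groups. Gnas, the Gs subunit, stood at 29616 to 36161 in controls and 23675 to 26867 in TDP-43 iΔEC libraries, with a log2 fold change of -0.40 ± 0.13 (adjusted p of 0.430). Tiam1, an exchange factor that activates Rac, stood at 4545, 3018 and 4972 in controls and 2716, 2163 and 2466 in TDP-43 iΔEC libraries (log2 fold change -0.77 ± 0.29, adjusted p of 0.488). Rap1a, a small GTPase of junctions and adhesion, stood at 1575, 1643 and 1009.5 in controls and 2764, 2969 and 2275 in TDP-43 iΔEC libraries. Its log2 fold change was 0.93 ± 0.30, with an adjusted p of 0.420. Rgs16, which speeds the turn-off of Gi and Gq signals, stood at 915, 763 and 839.9 in controls and 1449.7, 3951 and 1961 in TDP-43 iΔEC libraries (1.31 ± 0.47, adjusted p of 0.471). Arrb1, a β-arrestin that takes activated receptors off the membrane, stood at 181, 27.6 and 47.1 in controls and 434, 466 and 545 in TDP-43 iΔEC libraries (2.86 ± 1.17, adjusted p of 0.513). These adjusted p-values are limma's over all 13107 tested genes, and none passed.

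**Figure D4:**
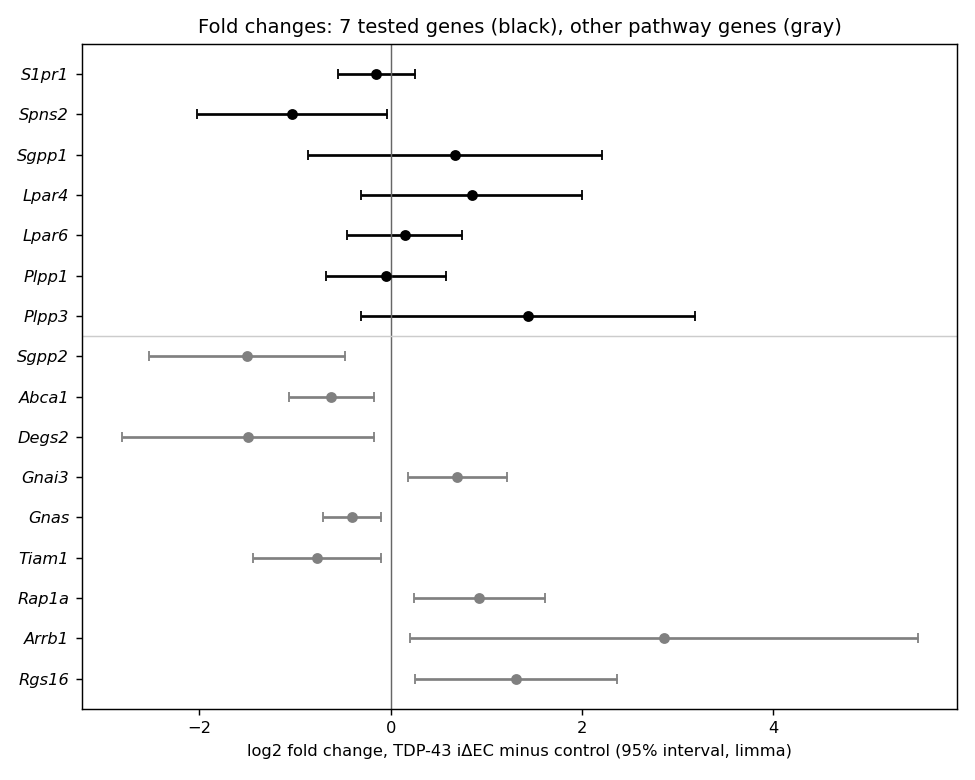
Log2 fold change of TDP-43 iΔEC against control libraries (horizontal axis, limma) with 95% intervals for the 7 tested members (black) and for 9 of the 11 wider pathway genes with an unadjusted p under 0.05 (gray), without Cerkl and Smpd3, which had libraries with 0 counts. The interval of Spns2 ends just below 0, those of the other 6 members include 0, and the gray genes were drawn because of their p, so that their intervals leave out 0 by choice.

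The fold changes of the members depended on single libraries to different degrees. Spns2, Lpar4 and Plpp3 kept their sign whichever single library was dropped, and their log2 fold changes were -1.32 to -0.52, 0.47 to 1.24 and 0.95 to 1.99. S1pr1 (-0.28 to 0.022), Sgpp1 (-0.032 to 1.08), Lpar6 (-0.0051 to 0.34) and Plpp1 (-0.24 to 0.18) did not. No member passed the adjusted threshold in any of these fits.

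**Figure D5:**
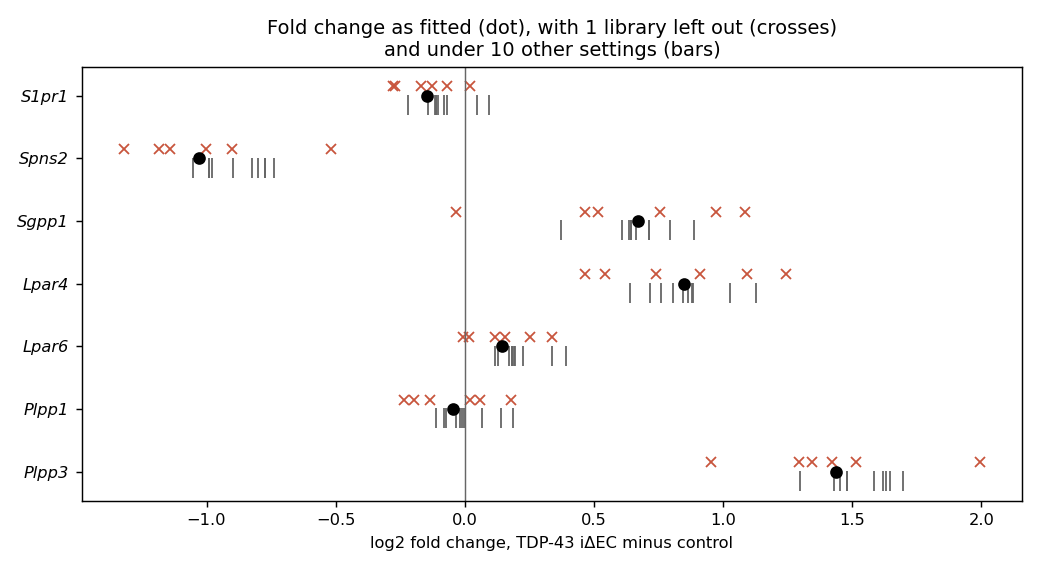
Log2 fold change of TDP-43 iΔEC against control libraries (horizontal axis) for the 7 tested members, as fitted with all libraries (dots), with 1 library left out (crosses) and under the other settings (bars). Spns2 stays below 0 and Lpar4 and Plpp3 stay above 0 throughout, while S1pr1, Sgpp1, Lpar6 and Plpp1 have values on both sides of 0.

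Across the 6 libraries, the members varied together only in part, which is given as a description because the points share their groups and library depth. On the log2 CPM scale, Pearson's r was 0.83 between S1pr1 and Spns2 and 0.73 between Sgpp1 and Plpp3, and it was -0.75 between Spns2 and Lpar4 and -0.71 between S1pr1 and Lpar4. The expression of each member was also compared with 7754 genes over the same 6 libraries. The genes most like S1pr1 were Ezh1, Ctnnbl1 and Ecm1 (r of 0.991, 0.989 and 0.982). For Spns2 they were Tm2d3, Vps8 and Rnaset2a (0.993, 0.990 and 0.987), and for Sgpp1 Alkbh2, Fmo1 and Nprl2 (0.997, 0.982 and 0.975). Lpar4 was most like Gstm2, Capza1 and Tgif1 (0.971, 0.967 and 0.966), and Lpar6 most like Mphosph6, Postn and Ube3a (0.996, 0.983 and 0.983). The nearest genes named were Ankhd1 and Zfp871 for Plpp1 (0.985 and 0.981) and Zdhhc18, Fosb and Tbc1d2b for Plpp3 (0.993, 0.986 and 0.976). These are the highest of 7754 values over 6 points each.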

How the data were processed

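Total RNA of FACS-sorted spinal cord ECs was the input for 3 control and 3 TDP-43 iΔEC libraries. It was reverse transcribed from an oligo-dT primer, which binds poly(A) tails. The authors mapped reads to GRCm39 with STAR 2.7.8a and deposited estimated counts per gene from RSEM 1.3.0 (GENCODE M30), as whole numbers without scaling. Here, genes with low counts were removed with filterByExpr of edgeR 4.0.16 (minimum count 10, minimum total 15), counts were scaled by TMM, and the groups were compared with voom and limma 3.58.1 in R 4.3.3, with Benjamini-Hochberg adjustment over 13107 genes and a threshold of 0.05. Alternatives were edgeR's quasi-likelihood test, DESeq2 1.42.0, other scalings and filters, and leaving out each library. Normalized counts used DESeq2 size factors. Levels per exon length used library totals and GENCODE M39, which held 98.7% of the gene identifiers and also gave positions and overlaps.

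Members and lists were chosen with earlier results of these data known. The text names the 8 members, Tardbp, wider-list genes with an unadjusted p under 0.05 or with a receptor or enzyme role, markers where set beside a member, and the 3 genes nearest to each member with a mean log2 CPM of at least 3, of which 1 is not reported here. Rb1, Mtrex, Farsb, Rpl18, Itga4 and Gm29838 are named because they overlap a gene described. Depth was 25704871 to 47270654 counts per library, which limits the precision for genes with few counts. Library pairs all differed beyond sampling noise.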

Additional observations from a re-analysis of the deposited data

How the results depend on the processing

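None of the 8 genes passed the adjusted threshold under any of the 17 alternatives. The count over all tested genes moved from 18 to 0 with edgeR (848 at an unadjusted p under 0.05), 250 with DESeq2, 10 with library sizes only, 1 with scaling to 5 EC marker genes, 76 without a filter, 39 with at least 10 counts in every library and 31 at an adjusted p under 0.1. With 1 library left out it was 0 to 13. In the wider lists, 1 gene passed with DESeq2 and 1 without a filter, Cerkl in both. The log2 fold change of S1pr1 changed sign with library sizes only (0.046) and with scaling to EC markers (0.093), and ran from -0.28 to 0.022 with 1 library left out. That of Plpp1 changed sign with sample quality weights (0.067), library sizes only (0.14) and EC markers (0.19), and ran from -0.24 to 0.18 with 1 library left out. Sgpp1 ran from -0.032 to 1.08 and Lpar6 from -0.0051 to 0.34 with 1 library left out. Scaling by library sizes moved the median of all genes to 0.18 and scaling to EC markers moved it to 0.23, which bears on the signs under these scalings. Leaving out control 2, the library with the fewest genes (12972), moved this median to -0.17. Leaving out any other library gave -0.015 to 0.032. For the other sign changes the cause was not tested. Same-numbered libraries did not deviate together (r of -0.064, -0.13 and -0.029). With 3 libraries per group, this check cannot decide whether the numbers pair them, and the main fit did not pair them. With a replicate block, 0 members passed and 22 genes in all. Few counts limit the low genes, chiefly Sphk1, whose only counts were in the shallowest libraries.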
